A study of Mus musculus with 9 samples.

Results

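The genes described here are 10 genes of heme breakdown, iron storage and iron transport in the embryonic mouse lens: Slc48a1, Hmox1, Hmox2, Blvrb, Ftl1, Fth1, Slc40a1, Hfe, Tfrc and Fech. They were chosen by symbol, as the rows of the deposited expression table that carry these names, and all 10 were found among the 15820 entries with a symbol (22013 entries in all). RNA was sequenced from lenses at embryonic day E16.5 of mice on an ICR background with germline knockout (KO) alleles of Mafg and Mafk, 2 of the small Maf transcription factors. Each of 9 libraries pooled 8 lenses, and each of 3 genotypes had 3 libraries. Control lenses were Mafg+/-:Mafk+/-, so the controls also carried 1 knockout allele of each gene and no wild-type lens was measured. Compound KO lenses were Mafg-/-:Mafk+/-, and double KO lenses were Mafg-/-:Mafk-/-. Both KO groups therefore lacked Mafg, and they differed from each other in whether a Mafk allele was left. Each value is the authors' CPM (a read count scaled to the library's total) after scaling by a composition factor for the library, called normalized CPM below. It is not corrected for transcript length, so levels are compared between libraries and not between genes.

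Heme that enters a cell or is freed from old proteins is opened by heme oxygenase, which releases iron, carbon monoxide and biliverdin. The freed iron is stored in ferritin, a shell of light and heavy chains, or leaves the cell through ferroportin. Several of these genes are textbook targets of the pathway that small Maf proteins belong to: a small Maf paired with Bach1 represses them, heme removes Bach1, and a small Maf paired with Nrf2 (the product of Nfe2l2) activates them. Lenses lose their organelles and are exposed to oxidants, and free iron feeds the formation of reactive oxygen species.

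The targeted genes followed the labels. Mafg read 112.9, 120.7 and 134.5 normalized CPM in the control libraries, 10.1, 21.0 and 24.1 in the compound KO and 24.6, 21.2 and 26.2 in the double KO libraries. Mafk read 5.2, 6.3 and 5.6 in control, 4.3, 5.3 and 4.8 in compound KO and 0.6, 0.0 and 0.3 in double KO libraries. Compound KO replicate 1 stood apart from the other 8 libraries. Its summed lens fiber markers (17 of 19 in the table, led by Cryba1, Crybb1 and Cryga) came to 67940, against 139476 to 215638 in the others. Its mesenchyme markers (14 of 14, led by Col1a1) summed to 2569, against 251 to 458 elsewhere. Col1a1 alone read 1173.6 in it, while Pdgfra of the same list read 72.0, its lowest value (123.2 to 173.4 elsewhere). The 8 retina and pigment epithelium markers, led by Pmel and Mitf, summed to 882 in this library, against 51.9 to 130 elsewhere. Pmel read 423.9 in it, while Mitf did not rise and read 23.2, its lowest value (23.7 to 28.6 elsewhere). The tests of the 10 genes that use the compound KO group, and of the other genes named below, are therefore given with and without this library. Erythroid markers (11 of 20 in the table, led by Hbb-bs, Hba-a2 and Hba-a1) summed to 1200 to 1658 in control, 1444 to 2906 in compound KO and 2389 to 3992 in double KO libraries, the last of these in double KO replicate 2. Skeletal muscle markers (10 of 10, led by Myh3, Acta1 and Actc1) summed to 3.3 to 6.4 in control, 23.7 to 418 in compound KO and 31.6 to 103 in double KO libraries, so all Mafg-null libraries exceeded all controls. Macrophage markers (12 of 14, led by Lyz2, Csf1r and Mrc1, with Ptprc and Aif1 not listed) summed to 17.3 to 22.7, 35.7 to 46.0 and 13.6 to 25.2 in the same order, and were not higher in double KO than in control lenses. Endothelial markers (10 of 10, led by Kdr, Tek and Egfl7) summed to 72.1 to 87.4, 85.8 to 153 and 81.9 to 89.5, and lens epithelial markers (7 of 7, led by Cdh2, Cdh1 and Gja1) to 1294 to 1382, 963 to 1229 and 1198 to 1286. The part of these other cells in the results below was not tested, and in pooled tissue fewer cells of a type and less RNA per cell cannot be told apart.

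**Figure D1:**
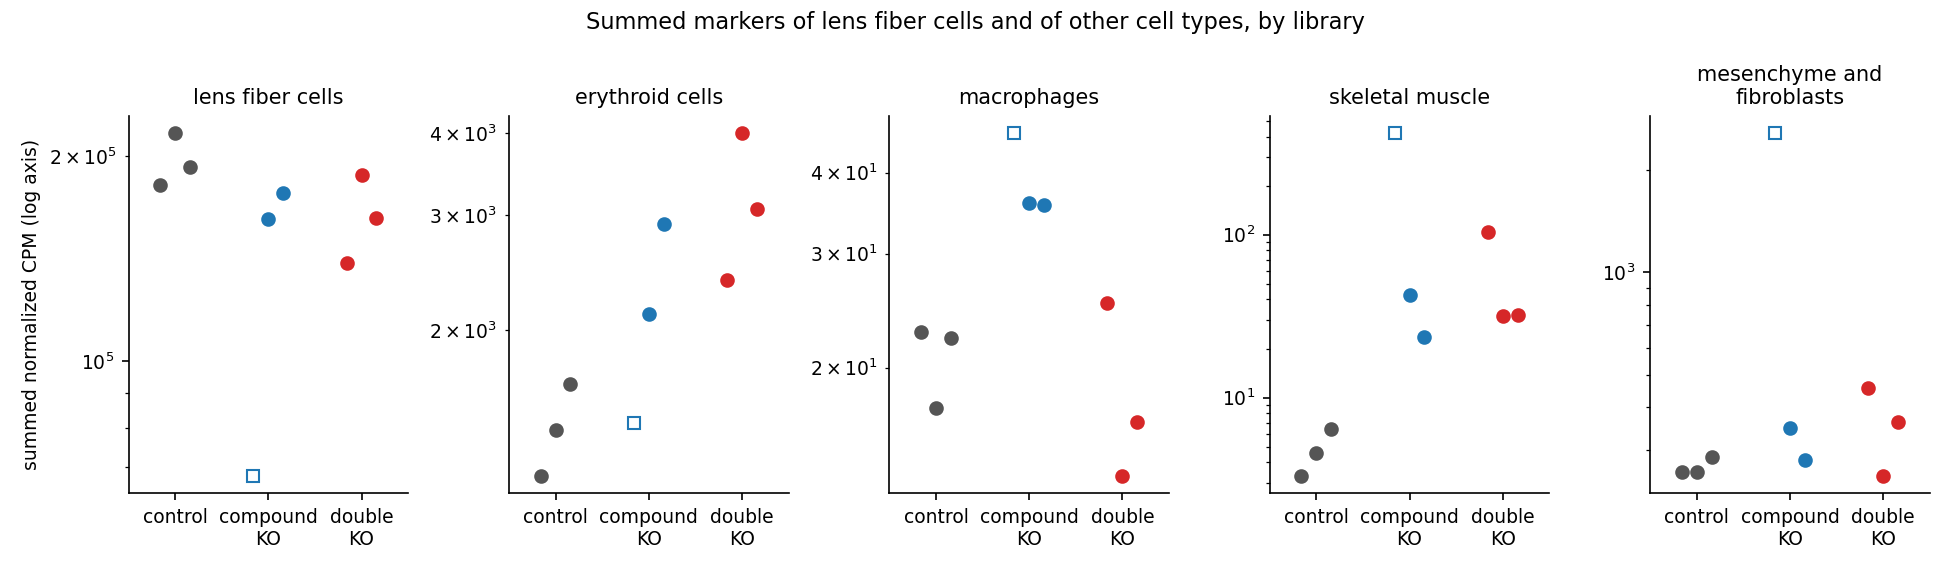
Summed normalized CPM of 5 marker lists in each library, on log axes, by genotype; points are libraries and the open square is compound KO replicate 1. This library is lowest for lens fiber cells (67940) and highest for mesenchyme (2569) and skeletal muscle (418), while the erythroid sum is highest in a double KO library (3992).

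Slc48a1 encodes a transporter that carries heme out of endosomes and lysosomes into the cytosol (mouse genome GRCm39, chr15:97676401-97690573, plus strand). Its normalized CPM was 30.5, 27.1 and 30.3 in control lenses, 62.2, 146.1 and 143.9 in compound KO lenses and 164.5, 166.5 and 163.1 in double KO lenses. The groups did not overlap: each double KO library was above each compound KO library, and each compound KO library above each control. Compound KO replicate 1 held the lowest Mafg-null value, and the double KO libraries varied little (165 ± 1.71, SD, n = 3). Between double KO and control lenses Slc48a1 rose by 2.45 on the log2 scale (standard error 0.06), or 5.48-fold, and had the lowest p-value of all 14122 genes tested (adjusted p = 0.000379). Fold changes are of log2(value + 1), which understates changes of genes with low values, and p-values are from limma with Benjamini-Hochberg adjustment over all genes tested. The 3' end of Slc48a1 overlaps Hdac7 on the other strand (chr15:97687372-97742383); Hdac7 itself read 3.0, 1.4 and 39.4 in control, 24.5, 31.2 and 40.6 in compound KO and 16.3, 38.9 and 26.2 in double KO libraries, and whether the counting used strand is not given in the sources used here.

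Hmox1, the inducible heme oxygenase (chr8:75820241-75827217, plus strand), had low values in control lenses. It read 1.8, 1.2 and 3.5 normalized CPM in control, 3.0, 14.1 and 12.6 in compound KO and 24.9, 20.4 and 24.7 in double KO libraries. All double KO libraries were above all compound KO libraries, but compound KO replicate 1 lay inside the control range. Between double KO and control lenses Hmox1 rose by 3.0 on the log2 scale (standard error 0.28), or 8.01-fold (adjusted p = 0.0233, limma). Hmox2, the heme oxygenase that cells make constitutively (chr16:4544216-4589816, plus strand), ran the other way. Its normalized CPM was 43.6, 34.7 and 44.8 in control, 24.3, 30.9 and 29.2 in compound KO and 29.1, 32.1 and 29.6 in double KO libraries. All 6 Mafg-null libraries were below all 3 controls, as for 4.27% of 14578 genes. The difference of -0.47 (standard error 0.11) between Mafg-null and control lenses did not pass (adjusted p = 0.306, limma). Without compound KO replicate 1 it was -0.42 (adjusted p = 0.141). Blvrb, which reduces biliverdin and flavins (chr7:27147275-27165569, plus strand), was low throughout, at 2.8, 2.3 and 2.6 in control, 4.3, 2.2 and 2.8 in compound KO and 2.8, 4.0 and 3.2 in double KO libraries. Its groups overlapped, and the double KO minus control difference was 0.27 with a 95% interval from -0.08 to 0.62.

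**Figure D2:**
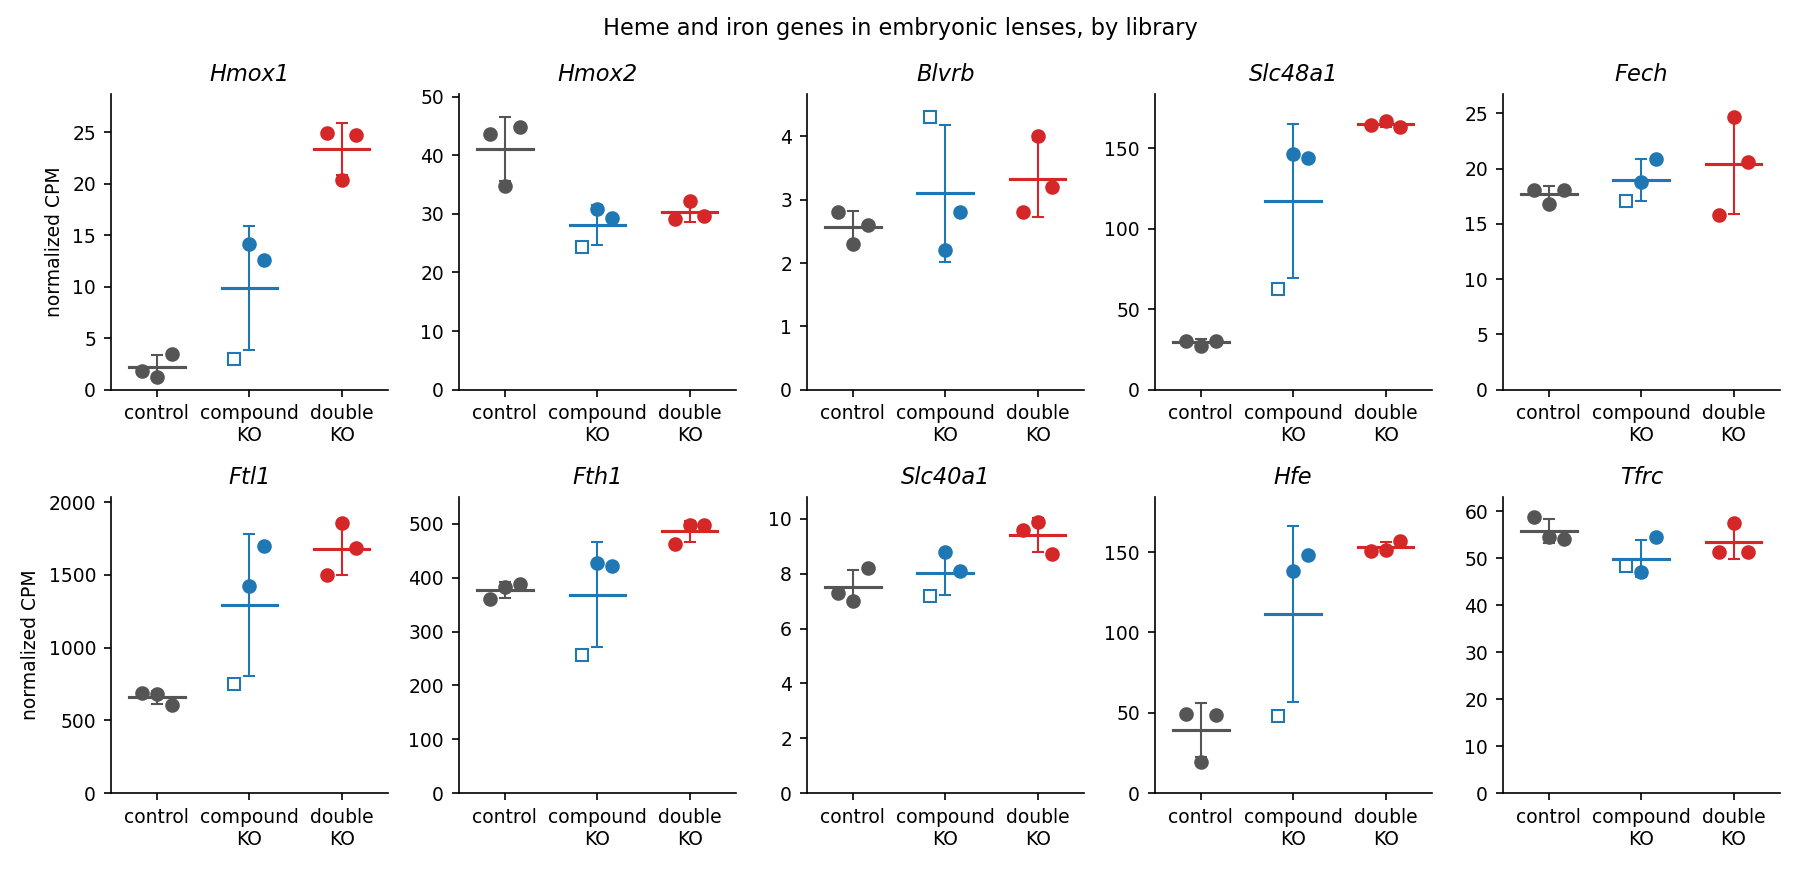
Normalized CPM of the 10 genes in each library, by genotype, on axes from 0; points are libraries, lines and bars are the mean and SD of 3 libraries, and the open square is compound KO replicate 1. Slc48a1, Hmox1, Ftl1 and Hfe are high in double KO lenses (means 165, 23.3, 1680 and 153) and low in controls (29.3, 2.17, 658 and 39.2), while Tfrc and Fech keep near one level.

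The ferritin light chain rose between double KO and control lenses and the heavy chain did not pass. Ftl1, the light chain that favours core formation (chr7:45107367-45109308, minus strand), read 686, 678 and 608 normalized CPM in control, 749, 1422 and 1697 in compound KO and 1499, 1854 and 1686 in double KO libraries. All Mafg-null libraries were above all controls, with compound KO replicate 1 the nearest to them, and the compound and double KO libraries overlapped. Ftl1 rose by 1.35 on the log2 scale (standard error 0.09), or 2.55-fold, between double KO and control lenses (adjusted p = 0.00929, limma). Fth1, the heavy chain that oxidizes iron (chr19:9957911-9962462, plus strand), read 361, 384 and 389 in control, 256, 428 and 421 in compound KO and 463, 498 and 498 in double KO libraries. Each double KO library was above each library of the other genotypes, yet compound KO replicate 1 was the lowest of all 9. The double KO minus control difference of Fth1 was 0.36 (standard error 0.05), with an adjusted p of 0.0934 by limma.

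Because both ferritin values of a library share its scaling, the ratio of Ftl1 to Fth1 does not depend on it. This ratio was examined after the values had been seen and is given as a description. It was 1.90, 1.77 and 1.56 in control, 2.93, 3.33 and 4.03 in compound KO and 3.24, 3.72 and 3.39 in double KO libraries. All 6 Mafg-null libraries, compound KO replicate 1 included, were above all controls, and the means of the Mafg-null groups were 3.43 (SD 0.56, n = 3) with a Mafk allele and 3.45 (SD 0.25, n = 3) without. The ratio of Hmox1 to Hmox2 was 0.041, 0.035 and 0.078 in control, 0.123, 0.456 and 0.432 in compound KO and 0.856, 0.636 and 0.834 in double KO libraries. Here, unlike the ferritin ratio, the double KO libraries were all above the compound KO libraries. An entry named Ftl2, a single-exon copy of the light chain that GENCODE lists as the processed pseudogene Ftl2-ps (chr4:125398081-125398632, plus strand), read 50.4 to 62.1 in control, 55.4 to 124 in compound KO and 131 to 142 in double KO libraries. The copy matches the Ftl1 transcript at 545 of 552 aligned bases (98.7%), and its ratio to Ftl1 was between 0.073 and 0.092 in all 9 libraries, so how reads were shared between them is uncertain.

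**Figure D3:**
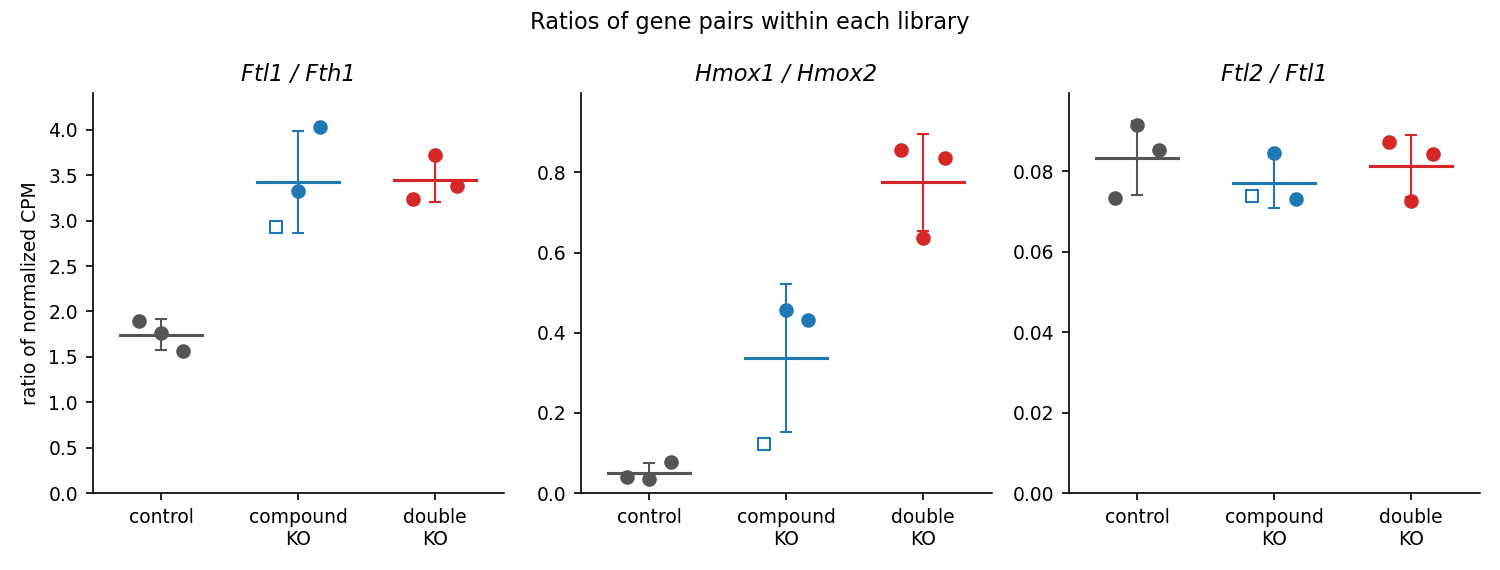
Ratio of normalized CPM within each library for 3 gene pairs, by genotype, on axes from 0; points are libraries, lines and bars are the mean and SD of 3 libraries, and the open square is compound KO replicate 1. Ftl1 to Fth1 is 1.56 to 1.90 in controls and 2.93 to 4.03 in all Mafg-null libraries, Hmox1 to Hmox2 is highest in double KO libraries, and Ftl2 to Ftl1 stays between 0.073 and 0.092.

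Hfe encodes a protein that resembles MHC class I molecules, binds the transferrin receptor and takes part in iron sensing (chr13:23886017-23894914, minus strand). Its normalized CPM was 49.3, 19.6 and 48.7 in control, 48.2, 138.1 and 148.1 in compound KO and 150.5, 151.5 and 156.8 in double KO libraries. Double KO libraries were above all others, and compound KO replicate 1 lay inside the control range. The double KO minus control difference was 2.05 (standard error 0.36), or 4.14-fold, but it did not pass (adjusted p = 0.157, limma). Control replicate 2 was far below the other controls, and without it the difference was 1.62 and passed (adjusted p = 0.00563).

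Promoters were searched for the letters that a small Maf bound to a CNC or Bach partner prefers. RefSeq promoter windows of 300 bases (250 before the start site and 50 after, build GRCm38.p6) were at hand for 6 of the 10 genes: Hmox2, Blvrb, Ftl1, Fth1, Hfe and Tfrc, with 11 windows. Hmox1, Slc48a1, Slc40a1 and Fech had no entry. Both strands were searched for GCTGANTCA, for TGACNNNGC (the core of the antioxidant response element) and for TGANTCA (the AP-1 type site, which GCTGANTCA contains). Hfe alone of these genes held any of them, all at the same place, 67 bases before its start site, where the sequence reads TGACTCAGC on the gene's strand and GCTGAGTCA on the other. Of all 32851 windows, 1.19% hold GCTGANTCA, 12.4% TGACNNNGC and 7.81% TGANTCA. A match is a description of letters and not evidence of binding, and windows without one say nothing of sites elsewhere. The loop of the iron responsive element (a C, then 5 bases, then CAGTGN) was in the first 50 transcribed bases of 0 of the 11 windows and in 1.55% of all windows. This search reached only those 50 bases, so it says nothing of elements further along these transcripts. The bases before the start of Hfe (chr13:23710855-23711104, GRCm38.p6, minus strand) are shown with the match in capitals, and those of Ftl1 (chr7:45459887-45460136, GRCm38.p6, minus strand), which rose without a match in its window, are shown beside them, both 5′ to 3′.
Hfe: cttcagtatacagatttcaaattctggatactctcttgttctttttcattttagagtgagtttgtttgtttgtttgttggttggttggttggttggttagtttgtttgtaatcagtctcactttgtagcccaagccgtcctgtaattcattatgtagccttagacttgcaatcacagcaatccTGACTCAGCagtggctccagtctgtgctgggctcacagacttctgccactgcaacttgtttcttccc
Ftl1: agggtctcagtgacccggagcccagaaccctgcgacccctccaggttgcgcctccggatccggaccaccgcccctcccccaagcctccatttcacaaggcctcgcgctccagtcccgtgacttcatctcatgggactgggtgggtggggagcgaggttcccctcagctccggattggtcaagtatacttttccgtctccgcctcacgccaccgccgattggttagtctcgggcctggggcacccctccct

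Of the 10 genes, those of iron entry and exit and of heme synthesis (Tfrc, Slc40a1 and Fech) moved little. Slc40a1 encodes ferroportin, the iron exporter (chr1:45947211-45965683, minus strand). It read 7.3, 7.0 and 8.2 normalized CPM in control, 7.2, 8.8 and 8.1 in compound KO and 9.6, 9.9 and 8.7 in double KO libraries. Double KO libraries were above all controls, but the difference of 0.29 (95% interval 0.04 to 0.54) did not pass (adjusted p = 0.429, limma). Tfrc, the transferrin receptor that brings iron in (chr16:32427556-32451612, plus strand), read 58.8, 54.4 and 54.1 in control, 48.3, 47.0 and 54.4 in compound KO and 51.3, 57.5 and 51.3 in double KO libraries. Its groups overlapped, with a double KO minus control difference of -0.06 (95% interval -0.23 to 0.11). Fech, which inserts iron in the last step of heme synthesis, read 18.1, 16.8 and 18.1 in control, 17.1, 18.8 and 20.9 in compound KO and 15.8, 24.7 and 20.6 in double KO libraries. Its highest value was in double KO replicate 2, the library with the highest erythroid sum, and its double KO minus control difference was 0.17 (95% interval -0.23 to 0.58).

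The comparison of Mafg-null lenses without and with a Mafk allele called none of the 10 genes (limma, adjusted p at or under 0.05 and at least 1.5-fold, against 0.0139% of 14402 genes called). All 10 passed the filter on low values in this and the other comparisons. At an unadjusted p of 0.05 with the same fold, Hmox1 was higher, against 0.854% of all genes (its unadjusted p was 0.0422). It missed this threshold without double KO replicate 1, 2 or 3 (unadjusted p of 0.0998, 0.0769 and 0.0989, differences of 1.32, 1.46 and 1.33) and when replicate numbers entered the fit as blocks (0.0542). Its double KO minus compound KO difference was 1.37, with a standard error of 0.53, a 95% interval from 0.07 to 2.68 and an adjusted p of 0.665 by limma. Double KO libraries were above all compound KO libraries for 4 of the 10 genes, Hmox1, Slc48a1, Fth1 and Hfe, against 8.17% of all genes. The other differences were 0.59 for Slc48a1 (95% interval -0.26 to 1.43), 0.61 for Hfe (-0.47 to 1.69), 0.46 for Ftl1 (-0.34 to 1.26) and 0.44 for Fth1 (-0.10 to 0.97). Hmox2, Blvrb, Fech, Slc40a1 and Tfrc differed by 0.08 to 0.21. The intervals of Slc48a1, Hfe and Ftl1 reach past a doubling, so at this spread a further change with the loss of Mafk was neither shown nor bounded to be small.

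These sizes depended on compound KO replicate 1, which was the lowest of the 6 Mafg-null libraries for Slc48a1, Hmox1, Ftl1, Fth1 and Hfe while its muscle, mesenchyme and retina sums were the highest. Without it the group means came closer, at 13.35 against 23.3 normalized CPM for Hmox1, 145 against 165 for Slc48a1, 143 against 153 for Hfe, 1560 against 1680 for Ftl1 and 424.5 against 486 for Fth1. The difference for Hmox1 was then 0.76 (95% interval 0.43 to 1.09, adjusted p = 0.485 by limma). For Slc48a1 it was 0.18 (0.07 to 0.29), for Fth1 0.19 (0.05 to 0.34), for Ftl1 0.11 (-0.23 to 0.44) and for Hfe 0.10 (-0.05 to 0.24). None of the 10 genes was called, against 0.0425% of 14112 genes. In these 5 libraries the upper ends of the intervals for Slc48a1, Hfe, Ftl1 and Fth1 stayed under 1.5-fold (0.58 on the log2 scale), whereas that of Hmox1 reached past a doubling. The median difference of the 10 genes was 0.32 with all libraries and 0.12 without compound KO replicate 1, beside -0.01 and -0.0016 over all genes. Scaled by library totals the median of all genes moved to -0.17 and that of the 10 genes to 0.14, and the small differences of Hmox2, Blvrb, Fech and Tfrc then turned below 0. The direction for Hmox1, Slc48a1, Hfe, Ftl1, Fth1 and Slc40a1 was the same under this scaling.

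**Figure D4:**
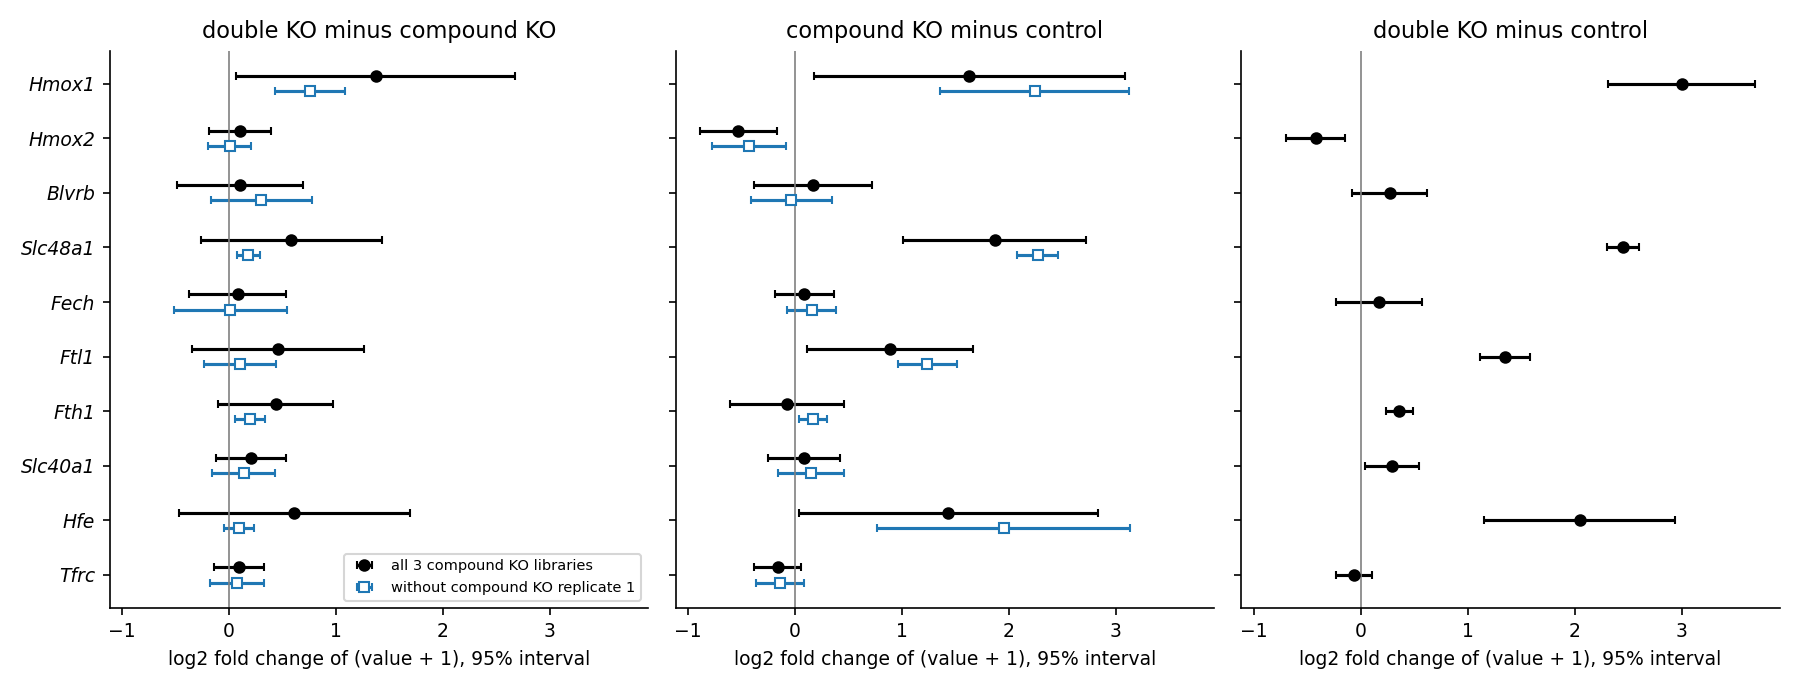
Log2 fold change of (value + 1) with its 95% interval from limma for the 10 genes in 3 comparisons; black points use all libraries and open blue squares leave out compound KO replicate 1. Without that library the double KO minus compound KO difference falls from 1.37 to 0.76 for Hmox1 and from 0.59 to 0.18 for Slc48a1, while that of Blvrb goes from 0.10 to 0.30. The compound KO minus control difference goes from 1.87 to 2.27 for Slc48a1 and from 0.17 to -0.03 for Blvrb.

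Against control lenses, the double KO called 3 of the 10 genes, Slc48a1, Ftl1 and Hmox1, all higher, against 0.361% of 14122 genes. At an unadjusted p of 0.05 Hfe joined them (1.59% of all genes were higher by this rule). Double KO libraries were above all controls for 6 of the 10 (Slc48a1, Hmox1, Ftl1, Fth1, Hfe and Slc40a1; 7.78% of all genes) and below them for 1 (Hmox2; 8.04%). The median difference was 0.33, beside 0.01 over all genes tested. Slc48a1 passed without any 1 of the 6 libraries. Hmox1 missed the threshold without control replicate 1 (adjusted p = 0.0917) or double KO replicate 1, 2 or 3 (adjusted p = 0.108, 0.0804 and 0.10), and Ftl1 without control replicate 3 (0.0506) or double KO replicate 3 (0.0503), with differences of at least 2.95 for Hmox1 and 1.29 for Ftl1 in those fits. Without double KO replicate 2, which had the highest erythroid sum, the difference was 3.09 for Hmox1. The erythroid sums of double KO replicates 1 and 3, at 2389 and 3064, were also above every control (1200 to 1658). The part of erythroid cells in this difference was not tested. With the spread estimated from all 9 libraries only Slc48a1 was called.

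Compound KO against control lenses called none of the 10 genes, as of all 14348 genes tested (0.00%, limma). At an unadjusted p of 0.05 and 1.5-fold, 4 of the 10 were higher (Slc48a1, Hmox1, Ftl1 and Hfe), against 3.81% of all genes. Compound KO libraries were all above the controls for Slc48a1 and Ftl1 (12.2% of all genes) and all below them for Hmox2 (11.7%). The differences were 1.87 for Slc48a1 (standard error 0.35), 1.63 for Hmox1 (0.59), 1.44 for Hfe (0.56) and 0.89 for Ftl1 (0.31). Without compound KO replicate 1, Slc48a1 was called at 2.27 (adjusted p = 0.0101), against 0.0926% of 14042 genes, and the differences of Hmox1, Hfe and Ftl1 were 2.24, 1.95 and 1.24. Fth1 stood at -0.07 with this library and 0.17 without it.

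With both KO groups set against control lenses in a fit of all 9 libraries, 1 of the 10 genes was called, Slc48a1, which rose by 2.16 (standard error 0.26, adjusted p = 0.0405 by limma), against 0.144% of 14578 genes. At an unadjusted p of 0.05, Slc48a1, Hmox1, Ftl1 and Hfe were higher (1.89% of all genes). All Mafg-null libraries were above all controls for Slc48a1 and Ftl1 (2.68%) and below them for Hmox2 (4.27%). Without compound KO replicate 1, 3 genes were called, Slc48a1 (2.36, adjusted p = 1.4e-05), Hmox1 (2.62, adjusted p = 0.00699) and Ftl1 (1.29, adjusted p = 0.00344), against 0.439% of 14342 genes. Leaving out any other of the 9 libraries, the difference of Slc48a1 stayed between 2.06 and 2.19 but its adjusted p rose to between 0.0648 and 0.175. The comparisons with control share the 3 control libraries and are not independent of each other.

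The rest of the pathway was examined in 7 lists of 60 further genes, of which 44 were in the table. Between double KO and control lenses 1 of the 43 tested was called, Pgrmc1, and it was higher (0.361% of all genes were called). Pgrmc1 encodes a heme-binding membrane protein. It read 72.6, 72.1 and 69.0 normalized CPM in control, 122, 122 and 122 in compound KO and 120, 144 and 117 in double KO libraries. Every Mafg-null library was above every control for Pgrmc1, as for 2.68% of all genes, and compound KO replicate 1 was level with the other 2 compound KO libraries. The double KO minus control difference was 0.82 (standard error 0.09, adjusted p = 0.0402 by limma). It was also the single gene of the lists called when both KO groups were set against control lenses (difference 0.80, adjusted p = 0.0328, against 0.144% of all genes), and without compound KO replicate 1 this difference was 0.80 (adjusted p = 0.00902). The double KO minus control difference of Pgrmc1 stayed between 0.73 and 0.88 with any 1 library left out, but its adjusted p was 0.0826 to 0.165 without control replicate 1, 2 or 3 or double KO replicate 1 or 3. In the Mafg-null fit its adjusted p was 0.0616 to 0.131 without control replicate 1, 2 or 3, compound KO replicate 2 or double KO replicate 1 or 3. With the replicate number as a block Pgrmc1 passed in neither (adjusted p = 0.183 and 0.142). Between double and compound KO lenses none of the 44 was called. Ncoa4, the receptor that takes ferritin to the lysosome, was higher at an unadjusted p of 0.0155 (difference 0.71, adjusted p = 0.665), and without compound KO replicate 1 the difference was 0.79 (adjusted p = 0.83). It read 27.0, 47.3 and 47.7 in control, 25.1, 19.0 and 23.6 in compound KO and 46.5, 39.2 and 28.4 in double KO libraries, so the double KO libraries lay inside the control range. B2m, the light chain that partners HFE and MHC class I, was lower at an unadjusted p of 0.0499 (difference -0.80), and read 7.3, 5.9 and 6.5, then 19.7, 10.6 and 8.0, then 7.0, 6.6 and 5.8, with its highest value in compound KO replicate 1. Without that library the B2m difference was -0.46 (adjusted p = 0.83), under 1.5-fold. None of the 8 genes of heme synthesis, 3 of iron sensing by iron regulatory proteins and 10 of mitochondrial iron and iron-sulfur clusters passed at an unadjusted p of 0.05 with 1.5-fold in either comparison. The erythroid 5-aminolevulinate synthase Alas2 read 17.3, 13.4 and 17.4 in control, 14.5, 21.4 and 31.3 in compound KO and 24.8, 48.5 and 19.4 in double KO libraries, a double KO minus control difference of 0.81 (95% interval -0.04 to 1.65).

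Of a list of 10 genes of the small Maf, CNC and Bach factors and their regulator Keap1, 9 were in the table. Mafg and Mafk were the ones called between double KO and control lenses, both lower, against 0.361% of 14122 genes. Maff, the third small Maf, read 3.6, 5.1 and 3.2 normalized CPM in control, 4.3, 3.5 and 3.9 in compound KO and 5.1, 5.2 and 4.1 in double KO libraries, with overlap. Bach1, the heme-sensing repressor, read 17.8, 15.8 and 17.5, then 35.7, 21.2 and 20.1, then 18.9, 19.1 and 17.3, and its double KO minus control difference was 0.11 (95% interval -0.09 to 0.31). The highest Bach1 value was in compound KO replicate 1. Nfe2l2 read 29.0, 31.4 and 31.2 in control, 22.0, 9.5 and 23.4 in compound KO and 22.5, 25.7 and 21.3 in double KO libraries. All 6 Mafg-null libraries were below all controls for Nfe2l2, as for 4.27% of 14578 genes. Its Mafg-null minus control difference was -0.60 (adjusted p = 0.589, limma), or -0.68 without compound KO replicate 1 (adjusted p = 0.344). Bach2, Nfe2l1 and Keap1 differed by 0.12, -0.18 and -0.02 between double KO and control lenses, with none called, and Nfe2l3 was at or under 1.8 in every library.

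**Figure D5:**
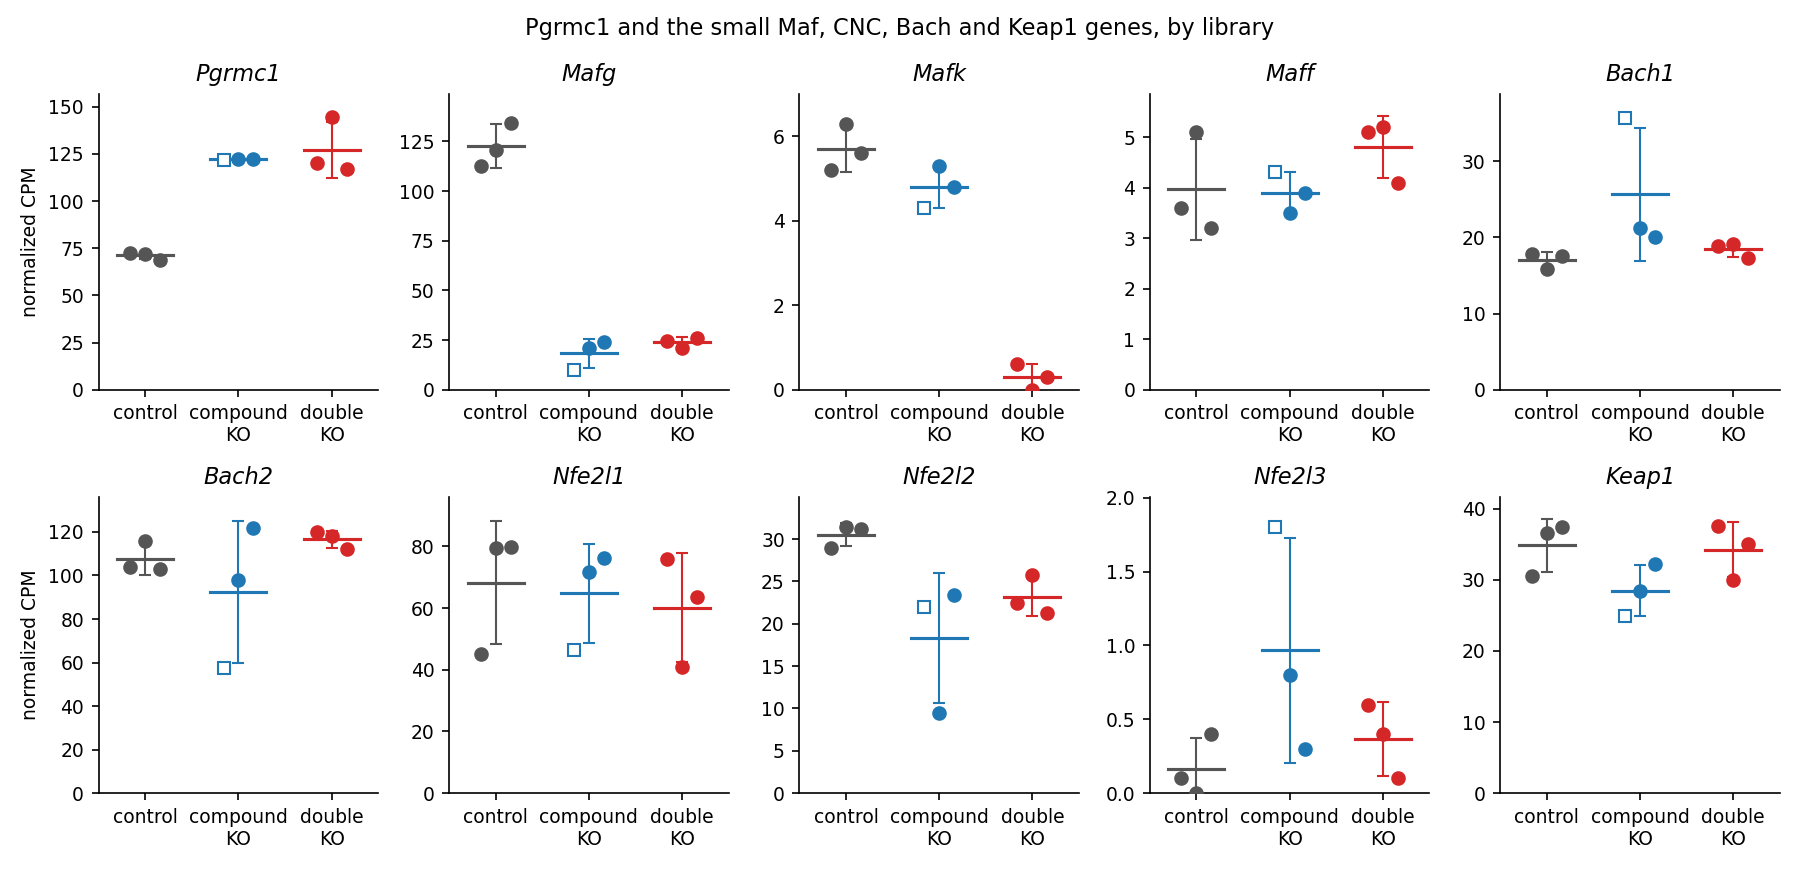
Normalized CPM of Pgrmc1, of 8 transcription factor genes and of Keap1 in each library, by genotype, on axes from 0; points are libraries, lines and bars are the mean and SD of 3 libraries, and the open square is compound KO replicate 1. Pgrmc1 is 69.0 to 72.6 in controls and 117 to 144 in Mafg-null libraries, Mafg is low in both KO groups, and Mafk is low in the double KO alone.

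Over the 9 libraries, the genes with the pattern most like that of Slc48a1 were sought among 10390 others with a mean of at least 5. They were Gm5776 (Pearson's r = 0.997 of log2 values), Pcyt1b (0.98), Atf5 (0.97), Ftl1 (0.97) and Pygo2 (0.97). For Hmox1 they were Gulp1 (0.97), Pcyt1b (0.96), Gm22133 (0.96), Me1 (0.96) and Slc48a1 (0.96). Gm5776 read 2.3, 2.1 and 2.3 in control, 5.4, 12.9 and 11.2 in compound KO and 11.9, 13.2 and 12 in double KO libraries, so compound KO replicate 1 lay between the controls and the other Mafg-null libraries, as for Slc48a1. It reached the mean of 5 through its Mafg-null values. Whether reads are shared between Gm5776 and Slc48a1 was not examined, so the 2 need not be independent. Of the other members, Hfe correlated with Slc48a1 at 0.94 and Slc40a1 at 0.79, while Hmox2 stood at -0.65 and Tfrc at -0.34. These values describe 9 libraries that share their scaling and their 3 genotypes, and they carry no test.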

How the data were processed

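Values came from a deposited table of 9 libraries. Paired-end reads from strand-specific libraries were mapped by the authors to mm39 (HISAT2) and assembled (StringTie). The authors used edgeR to drop entries with low CPM and to test differential expression, and those tests were not used here. The deposited signal is CPM scaled by a composition factor per library and rounded. This was inferred from library totals of 728036 to 1131184 with a geometric mean of 1000012. The lowest total was that of compound KO replicate 1, and the other libraries were at 977149 or above. Read counts and depth are unknown, so no counting intervals are given and precision is the spread between libraries. Entries are at transcript level, so reads of a gene may sit in entries without a symbol, which were left out.

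limma 3.58.1 (R 4.3.3, intensity trend, two-sided, Benjamini-Hochberg) was fitted to log2(value + 1) of all symbols that reached 1 in 2 or more of the compared libraries. A call needed an adjusted p no higher than 0.05 and a change of 1.5-fold or more. The fit was tested on simulated data with known changes. An exact permutation of 3 against 3 libraries cannot go below p = 0.1, so none was used. The labels number the libraries as replicates, and the paper calls them biological replicates.

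The members and lists were chosen with earlier results of these data known. Named were all members, the factor genes, other pathway genes with an unadjusted p of at most 0.05, 1.5-fold and no overlap in a double KO comparison, the 5 genes most correlated with Hmox1 and Slc48a1, and the top markers of each cell type (1 marker is not reported here). Fech is given without position. Alas2 was named after its values were seen, as were Ftl2 and Hdac7. Gene positions are from GENCODE M39, and Python 3.11.15 with pandas 2.3.3 and matplotlib 3.10.9 made summaries and figures. Alternatives changed the scaling, filter, pseudocount, spread, trend, entries used and replicate block, and left out each library. For genes outside the 10 members these were chosen after seeing the data.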

Additional observations from a re-analysis of the deposited data

How the results depend on the processing

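Without compound KO replicate 1 the call of Slc48a1 appeared between compound KO and control lenses, and those of Hmox1 and Ftl1 among all Mafg-null lenses, so that library limits the comparisons with the compound KO. Depth is unknown, and low genes such as Blvrb and Hmox1 in control lenses rest on values of 1 to 5.

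For double against control lenses 3 of the 10 genes were called, but 1 with the spread of all 9 libraries, 1 with the replicate block and 1 to 4 with a library left out. For Mafg-null against control lenses 1 was called, but 2 when scaled by library total (Ftl1 joined, at 1.28), 0 with the replicate block, 4 by unadjusted p and 0 to 3 with a library left out. For compound KO against control lenses 0 were called, but 4 by unadjusted p and 0 to 1 with a library left out. For double against compound KO lenses 0 were called, 1 by unadjusted p and 0 in each fit with a library left out. With the replicate block, the adjusted p of Slc48a1 was 0.0302 for double KO and 0.163 for Mafg-null against control lenses, and in the former Hmox1 and Ftl1 both had 0.129 and Mafk and Pgrmc1 both 0.183. Each library's deviations from the mean of its genotype, in log2(value + 1), were correlated over genes with those of libraries of the other genotypes. Correlations of these deviations between same-numbered libraries ran from -0.106 to 0.216, all above 0 except control replicate 3 with compound KO replicate 3. Those of differently numbered libraries ran from -0.223 to 0.189, and most were below 0. The deviations within a genotype sum to 0, so these values are tied to those of same-numbered libraries and are no separate observation. The numbers were not taken as pairs in the main fits, and whether they mark a shared batch was not tested. Not every library correlated best with one of its own number.

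Of 670 fold changes of single members under the alternatives, 633 kept direction and call. Directions reversed in 13, all of differences that were not called. Scaling by library total gave -0.0731 for Hmox2, -0.0511 for Blvrb, -0.0954 for Fech and -0.0879 for Tfrc between double and compound KO lenses, 0.00565 for Tfrc between double KO and control lenses, 0.182 for Fth1 and 0.0935 for Tfrc between compound KO and control lenses, and 0.0496 for Tfrc between Mafg-null and control lenses. With a library left out, the double KO minus compound KO difference ranged from -0.0599 (without compound KO replicate 2) to 0.304 for Blvrb, where it was -0.00516 without double KO replicate 2, and from -0.0611 (without double KO replicate 2) to 0.246 for Fech. The compound KO minus control difference ranged from -0.201 to 0.168 (without compound KO replicate 1) for Fth1 and from -0.0301 (without compound KO replicate 1) to 0.334 for Blvrb. The causes were not tested.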
